A study of Mus musculus with 8 samples.

Results

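The 10 genes described here are the AP-1 subunits *Fos*, *Fosb*, *Fosl1*, *Fosl2*, *Jun*, *Junb* and *Jund* and the early-response genes *Egr1*, *Klf6* and *Ier3*, chosen by symbol from the 53700 genes of the deposited count table. All 10 were in the table and all 10 entered the test. The cells were Lewis lung carcinoma (LLC) cells, a mouse lung tumor line, cultured for 16 hours in normoxia (21% O2) or hypoxia (1% O2). WT cells carried intact *Hif1an*, the gene encoding factor-inhibiting HIF (FIH). FIH-KO cells had been edited with Cas9 and a guide against an exon of *Hif1an* and then grown from single-cell dilution, so that a trait of the clone cannot be told apart from the loss of FIH. No group received any other treatment. RNA-Seq gave 2 libraries in each of the 4 groups, 8 in all. The sources used here do not say whether the libraries of a group came from separate cultures, and the p-values measure the spread between these libraries, which may be technical.

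AP-1 is a dimeric transcription factor built from a JUN protein paired with a FOS, ATF or MAF protein, or with another JUN protein, and it binds short palindromic sites in promoters and enhancers. Growth factors and stress induce some of its subunit genes within minutes, without new protein synthesis, mainly through MAP kinases and the serum response factor. Genes induced in this way are called immediate early genes, whereas *Jund*, for example, is usually described as constitutive. FIH is an oxygen-dependent asparagine hydroxylase that keeps HIF, the transcription factor of the hypoxia response, from recruiting its coactivators. Several AP-1 subunits, *Fosl1* and *Jun* in particular, are known from lung tumors for their part in growth and invasion.

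In WT cells, hypoxia raised all 10 genes (median log2 fold change 1.47, against -0.00 over the 13933 genes tested), and 16.9% of all genes tested rose. In FIH-KO cells, 6 of the 10 rose (median 1.07, against -0.03 over all genes), and 8.84% of all genes rose. The 10 genes were chosen with earlier results of these data known, so these shares describe them and are no independent test. Between genotypes, *Jund* and *Klf6* were higher in FIH-KO cells in normoxia, 2 of 10 where 28.2% of all genes were called in either direction and 15.2% as higher. In hypoxia none of the 10 was called between genotypes by edgeR or by DESeq2, 2 of them (*Ier3* and *Fosb*) had an unadjusted p under 0.05 in edgeR, as 39.5% of all genes did, and 28.0% of all genes were called. *Fos* reached the test only through its hypoxia libraries. In both normoxia groups it lay under the 0.609 CPM (read counts scaled to the library total) that the filter asked for. The rise of *Fos* was thus partly set by the filter. Without *Fos*, 9 of 9 genes rose in WT cells (median 1.44) and 5 of 9 in FIH-KO cells (median 1.05). A gene was called when its adjusted p from edgeR's quasi-likelihood test was under 0.05. In bulk libraries, fewer cells making an RNA and less of it in each cell cannot be told apart.

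Library totals ran from 14519731 to 18177016 counts. *Hif1an* had 1231 to 1609 counts in the WT libraries and 584 to 784 in the FIH-KO libraries, in the direction of the labels (log2 fold change -1.20 ± 0.12 (SE) in normoxia and -0.85 ± 0.12 in hypoxia). It lies on chromosome 19, where the median of 475 tested genes was -0.38 in normoxia and -0.45 in hypoxia between FIH-KO and WT. The part of the chromosome in the *Hif1an* difference was not tested. The epithelial keratin genes *Krt8* and *Krt18* had at least 1521 and 1693 counts in every library, whereas *Epcam* was at 0 throughout and *Cdh1* at no more than 1 count. The keratin genes moved with the comparisons. *Krt8* was higher in FIH-KO cells by 1.02 ± 0.16 at 21% O2 (adjusted p = 0.00066) and by 0.998 ± 0.158 at 1% O2 (adjusted p = 0.00083), *Krt19* (11 to 235 counts) rose in hypoxia by 3.20 ± 0.49 in WT cells and 3.74 ± 0.48 in FIH-KO cells, and *Krt18* fell in hypoxia in WT cells (-0.59 ± 0.18, adjusted p = 0.023). Among markers of other cells, *Ptprc* had at most 3 counts and *Cd3e*, *Adgre1* and *Emcn* were at 0. The summed level of 6 leukocyte markers, nearly all of it *Csf1r* (at most 53 counts), ran from 0 to 0.118 CPM in normoxia and from 0.716 to 3.14 CPM in hypoxia, and that of 5 endothelial markers reached 2.41 CPM in WT hypoxia against at most 0.321 in normoxia. The summed level of 5 fibroblast markers, mainly *Pdgfra* (111 to 427 counts), was 28.9 to 29.0 CPM in WT normoxia, 21.3 to 24.5 in FIH-KO normoxia, 15.5 to 24.4 in WT hypoxia and 9.12 to 17.6 in FIH-KO hypoxia, and *Pdgfra* was lower in FIH-KO than in WT cells in hypoxia (-0.87 ± 0.27, adjusted p = 0.032). The part of these marker genes in the results was not tested. The hypoxia libraries of a group differed in these 10 genes. Of the 10 genes, 9 were higher in replicate 1 than in replicate 2 of FIH-KO hypoxia and 8 in replicate 1 of WT hypoxia, while 50.9% and 49.3% of all genes tested were. FIH-KO hypoxia replicate 1 exceeded replicate 2 by up to 2.42-fold (*Junb*).

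The 250 bases before the start of the annotated canonical transcript are shown for *Ier3*, the gene with the largest change in WT hypoxia after *Fos*, for *Klf6* and *Jund*, the genes called between genotypes, and for *Fos*, the founding member of the family. They were read from GRCm39, 5′ to 3′ on the strand of the gene, at chr17:36132318-36132567 (plus strand), chr13:5911231-5911480 (plus), chr8:71151349-71151598 (plus) and chr12:85520408-85520657 (plus), and end just before the transcript. Capitals mark the core of the hypoxia response element bound by HIF (ACGTG or GCGTG, or on the other strand CACGT or CACGC) and, in *Jund*, the cyclic AMP response element (TGACGTCA).
Ier3: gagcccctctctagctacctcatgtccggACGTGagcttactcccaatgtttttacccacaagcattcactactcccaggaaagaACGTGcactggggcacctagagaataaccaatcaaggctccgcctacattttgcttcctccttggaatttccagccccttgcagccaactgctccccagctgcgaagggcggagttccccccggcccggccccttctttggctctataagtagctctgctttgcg
Klf6: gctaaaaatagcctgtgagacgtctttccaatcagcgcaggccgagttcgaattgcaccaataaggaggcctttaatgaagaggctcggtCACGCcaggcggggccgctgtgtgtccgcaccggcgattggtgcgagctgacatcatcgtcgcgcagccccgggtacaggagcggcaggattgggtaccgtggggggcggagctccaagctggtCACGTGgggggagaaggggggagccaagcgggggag
Jund: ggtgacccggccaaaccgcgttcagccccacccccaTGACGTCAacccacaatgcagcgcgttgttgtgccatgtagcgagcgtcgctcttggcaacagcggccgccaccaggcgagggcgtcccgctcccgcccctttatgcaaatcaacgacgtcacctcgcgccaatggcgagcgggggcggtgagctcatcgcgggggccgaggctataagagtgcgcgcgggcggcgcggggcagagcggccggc
Fos: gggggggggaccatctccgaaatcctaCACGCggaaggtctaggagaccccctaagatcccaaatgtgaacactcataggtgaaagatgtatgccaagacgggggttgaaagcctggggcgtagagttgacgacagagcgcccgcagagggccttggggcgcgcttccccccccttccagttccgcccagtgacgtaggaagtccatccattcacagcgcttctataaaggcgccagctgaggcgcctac
*Ier3* held the core ACGTG at 221 to 217 and at 165 to 161 bases before its start. In *Klf6* the cores on either strand overlapped in one palindrome, CACGTG, close to the start, and a further match lay 160 to 156 bases before it. Of the 9 windows read (that of *Egr1* was not read), 4 held a core, those of *Fos*, *Junb*, *Klf6* and *Ier3*, against 41.35% of the 21119 windows of protein-coding genes of the same length, so the core was about as common in the 9 as elsewhere. The cyclic AMP response element was in 1 of 9 windows against 1.7%. The AP-1 site (TGACTCA or TGAGTCA) was in none of the 9 and in 4.05% of all windows, the CArG box of the serum response factor in none and 1.43%, and the EGR site (GCGTGGGCG, whose letters contain a hypoxia core) in none and 0.53%. A match is a run of letters and not a shown binding site, and its absence from 250 bases says nothing of the factor.

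**Figure D1:**
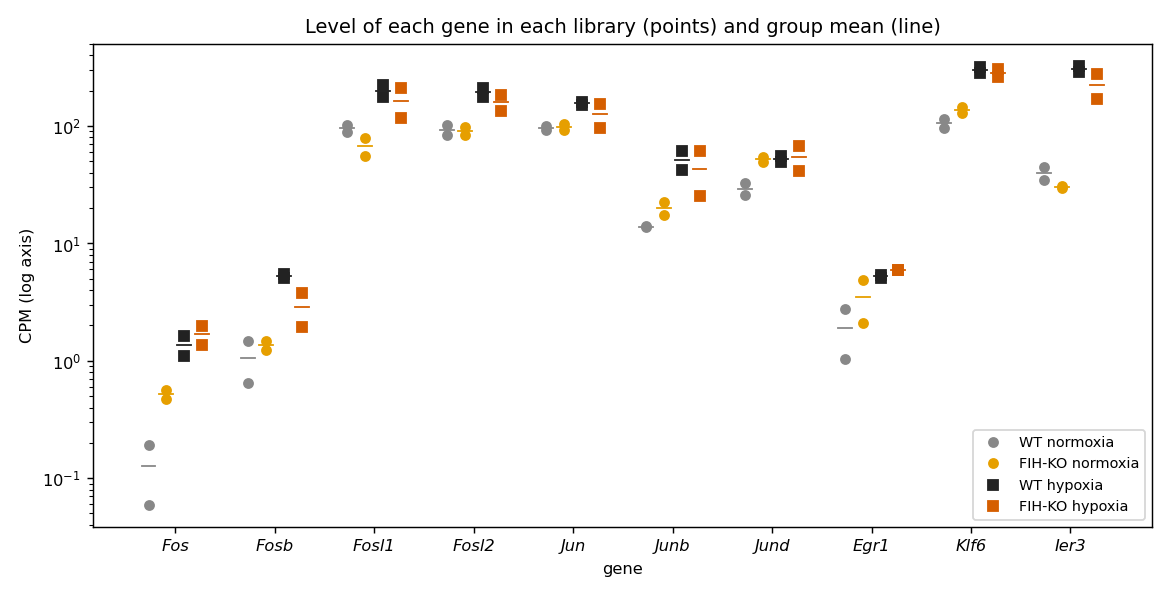
Level of the 10 genes in each of the 8 libraries, in CPM on a log axis, with one point per library and a line at the mean of each group of 2. In WT cells both hypoxia points (black squares) lie above both normoxia points (grey circles) for all 10 genes, and the FIH-KO hypoxia points (orange squares) of *Junb* lie far apart, at 61.0 and 25.2 CPM.

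Among the FOS genes, *Fosl1*, encoding FRA-1, was by far the most abundant per length. It stood at 102 and 88.7 CPM in WT normoxia, 55.3 and 79.5 in FIH-KO normoxia, 225 and 177 in WT hypoxia and 209 and 117 in FIH-KO hypoxia. Both hypoxia groups lay above both normoxia groups, and in normoxia both FIH-KO libraries lay below both WT libraries. *Fosl1* rose in hypoxia in WT (log2 fold change 1.07 ± 0.24 (SE), adjusted p = 0.0052) and in FIH-KO cells (1.27 ± 0.24, adjusted p = 0.0042). The genotypes differed by -0.50 ± 0.24 at 21% O2 (adjusted p = 0.14) and by -0.30 ± 0.24 at 1% O2 (adjusted p = 0.38), neither a call. *Fosl1* lies on chromosome 19 (GRCm39, chr19:5497575-5505974, plus strand), where the median of 475 tested genes was -0.38 in normoxia and -0.45 in hypoxia between FIH-KO and WT, against -0.07 and 0.13 for its 6 nearest tested genes. The part of the chromosome in the *Fosl1* difference was not tested. Without WT hypoxia replicate 1 the rise in WT cells was 0.85 (adjusted p = 0.063), and without WT normoxia replicate 2 it was 0.93 (adjusted p = 0.064).

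*Fosl2*, encoding FRA-2, varied less between libraries. Its levels were 102 and 84.5 CPM in WT normoxia, 84.7 and 98.5 in FIH-KO normoxia, 212 and 177 in WT hypoxia and 184 and 136 in FIH-KO hypoxia. The genotypes overlapped at both oxygen levels, while hypoxia and normoxia did not. Hypoxia raised it by 1.07 ± 0.16 on the log2 scale in WT cells (adjusted p = 0.0005) and by 0.81 ± 0.16 in FIH-KO cells (adjusted p = 0.0055).

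*Fosb* and *Fos*, the subunits with the strongest transactivation domains, were scarce. *Fosb* had 23 and 11 counts in WT normoxia, 25 and 22 in FIH-KO normoxia, 90 and 80 in WT hypoxia and 61 and 30 in FIH-KO hypoxia. WT hypoxia stood above every other group. *Fosb* rose in hypoxia in WT cells (2.31 ± 0.42, adjusted p = 0.0016), whereas in FIH-KO cells its change of 1.09 ± 0.42 was not called (adjusted p = 0.097). In hypoxia the FIH-KO libraries were both below the WT libraries (-0.86 ± 0.37, adjusted p = 0.10).

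*Fos* had 3 and 1 counts in WT normoxia, 8 and 10 in FIH-KO normoxia, 29 and 16 in WT hypoxia and 32 and 21 in FIH-KO hypoxia, and no library of a normoxia group reached the level of a hypoxia library. The ratio of hypoxia to normoxia in WT cells was 11.2 (95% interval 4.10 to 43.0, exact, for counting error only), and in FIH-KO cells it was 3.25 (1.87 to 5.90). The fitted changes were 3.39 ± 0.63 (adjusted p = 0.0018) and 1.69 ± 0.47 (adjusted p = 0.029). In normoxia the ratio of FIH-KO to WT was 4.21 (1.39 to 17.1), from 18 against 4 counts, and it was not called (adjusted p = 0.057). The call in FIH-KO cells did not hold in DESeq2 (adjusted p = 0.11) or without FIH-KO hypoxia replicate 1 (adjusted p = 0.16), FIH-KO normoxia replicate 1 (adjusted p = 0.15) or FIH-KO normoxia replicate 2 (adjusted p = 0.10).

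Of the JUN genes, *Jun*, the partner with the strongest transactivation, changed least in WT cells. Its levels were 92.7 and 100.2 CPM in WT normoxia, 104 and 93.5 in FIH-KO normoxia, 160 and 152 in WT hypoxia and 155 and 96.5 in FIH-KO hypoxia. Both WT hypoxia libraries stood clear of the normoxia libraries, while FIH-KO hypoxia replicate 2 lay among them. *Jun* rose in WT cells (0.69 ± 0.17, adjusted p = 0.01), and the change of 0.35 ± 0.17 in FIH-KO cells was not called (adjusted p = 0.20). Without FIH-KO hypoxia replicate 2 that change was 0.65, and without replicate 1 it was -0.01, so it depended on which of these libraries was kept. The call in WT cells was lost without WT hypoxia replicate 1 (0.62, adjusted p = 0.076), WT normoxia replicate 1 (0.59, adjusted p = 0.096) or WT normoxia replicate 2 (0.71, adjusted p = 0.06).

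*Junb*, which encodes a weaker activator that can restrain JUN, was induced most among the JUN genes. It had 13.9 and 14.0 CPM in WT normoxia, 17.6 and 22.6 in FIH-KO normoxia, 60.9 and 42.4 in WT hypoxia and 61.0 and 25.2 in FIH-KO hypoxia. The groups did not overlap between oxygen levels, although FIH-KO hypoxia replicate 2 came near the normoxia libraries. In normoxia both FIH-KO libraries lay above both WT libraries, with a difference of 0.53 ± 0.33 that was not called (adjusted p = 0.26). At 1% O2 the genotypes differed by -0.26 ± 0.31 (adjusted p = 0.56). *Junb* rose by 1.89 ± 0.33 in WT cells (adjusted p = 0.0012) and by 1.10 ± 0.32 in FIH-KO cells (adjusted p = 0.033). The latter call was lost in DESeq2 (adjusted p = 0.10), in the fit of only the FIH-KO libraries (adjusted p = 0.063), without FIH-KO hypoxia replicate 1, where the change was 0.35, and without FIH-KO normoxia replicate 1 (adjusted p = 0.18) or replicate 2 (adjusted p = 0.071). *Junb* overlaps *Prdx2* on the opposite strand, and *Fosl1* overlaps *Ccdc85b*, and the counting strand is not given in the sources used here. In WT cells hypoxia lowered both neighbors, *Prdx2* (-0.67 ± 0.11, adjusted p = 0.00063) and *Ccdc85b* (-0.79 ± 0.18, adjusted p = 0.005). In FIH-KO cells the changes were -0.40 ± 0.11 (adjusted p = 0.022) for *Prdx2* and -0.48 ± 0.17 (adjusted p = 0.078) for *Ccdc85b*. The part of reads from the opposite strand in the *Junb* and *Fosl1* counts was not tested. *Junos*, antisense to *Jun*, had 18 to 46 counts in any library, and the *Jund* antisense gene *Gm11175* 1 to 14.

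*Jund*, encoding the subunit usually described as constitutive, was the only JUN gene called between genotypes, and whether it differed from *Jun* or *Junb* was not tested. Its levels were 25.96 and 32.6 CPM in WT normoxia, 49.4 and 54.6 in FIH-KO normoxia, 55.4 and 49.8 in WT hypoxia and 67.5 and 41.2 in FIH-KO hypoxia. WT normoxia was the low group, and the other 3 groups overlapped. *Jund* rose in hypoxia in WT cells (0.84 ± 0.20, adjusted p = 0.0076), and its change in FIH-KO cells was 0.07 ± 0.20 (adjusted p = 0.87). It was higher in FIH-KO than in WT cells in normoxia (0.83 ± 0.20, adjusted p = 0.0094), with 0.05 ± 0.20 in hypoxia (adjusted p = 0.88). The 6 tested genes nearest to *Jund* on chromosome 8 (GRCm39, chr8:71151599-71153265, plus strand) had a median FIH-KO to WT difference of 0.62 in normoxia and 0.53 in hypoxia, against -0.05 and -0.12 over the 752 tested genes of the chromosome. Their link to the *Jund* difference was not tested. The normoxia call was lost without FIH-KO normoxia replicate 2 (0.73, adjusted p = 0.054) and without WT normoxia replicate 1 (0.65, adjusted p = 0.12). The hypoxia call in WT cells was lost without WT hypoxia replicate 1 (0.73, adjusted p = 0.069) and without WT normoxia replicate 1 (0.65, adjusted p = 0.098).

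*Ier3*, an early gene linked to survival under stress, was the most abundant of the 10 per length in hypoxia, above 99.3% of genes in WT cells by RPKM (read counts per kilobase of exon, scaled to the library total). It stood at 45.2 and 34.6 CPM in WT normoxia, 31.0 and 29.4 in FIH-KO normoxia, 289 and 326 in WT hypoxia and 279 and 171 in FIH-KO hypoxia. All 4 groups were apart, with FIH-KO below WT at each oxygen level. *Ier3* rose 7.71-fold in WT cells (2.95 ± 0.21, adjusted p = 4.1e-06) and 7.44-fold in FIH-KO cells (2.90 ± 0.21, adjusted p = 4.5e-06). The genotypes differed by -0.40 ± 0.21 at 21% O2 (adjusted p = 0.17) and by -0.45 ± 0.19 at 1% O2 (adjusted p = 0.098).

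*Klf6*, a zinc finger transcription factor with tumor-suppressor activity in several epithelia, followed with smaller errors. It had 115 and 96.8 CPM in WT normoxia, 130 and 145 in FIH-KO normoxia, 320 and 282 in WT hypoxia and 305 and 264 in FIH-KO hypoxia. The hypoxia groups overlapped each other and lay far above the normoxia groups. Hypoxia raised *Klf6* by 1.504 ± 0.130 in WT cells (adjusted p = 1.5e-05) and by 1.05 ± 0.13 in FIH-KO cells (adjusted p = 0.00029). In normoxia it was 1.30-fold higher in FIH-KO cells (0.38 ± 0.13, adjusted p = 0.045), a call that was lost in 8 of 15 alternative analyses.

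*Egr1*, a zinc finger factor induced by serum and growth factors, was scarce and variable. Its counts were 16 and 47 in WT normoxia, 35 and 87 in FIH-KO normoxia, 97 and 74 in WT hypoxia and 95 and 92 in FIH-KO hypoxia. Replicates of the normoxia groups differed by more than 2-fold in counts, those of hypoxia by less. *Egr1* rose in hypoxia in WT cells (1.44 ± 0.44, adjusted p = 0.025), and in FIH-KO cells the change of 0.77 ± 0.41 was not called (adjusted p = 0.22). The WT call was lost without WT hypoxia replicate 1 (1.35, adjusted p = 0.11), WT hypoxia replicate 2 (1.49, adjusted p = 0.075) or WT normoxia replicate 1 (0.87, adjusted p = 0.21).

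**Figure D2:**
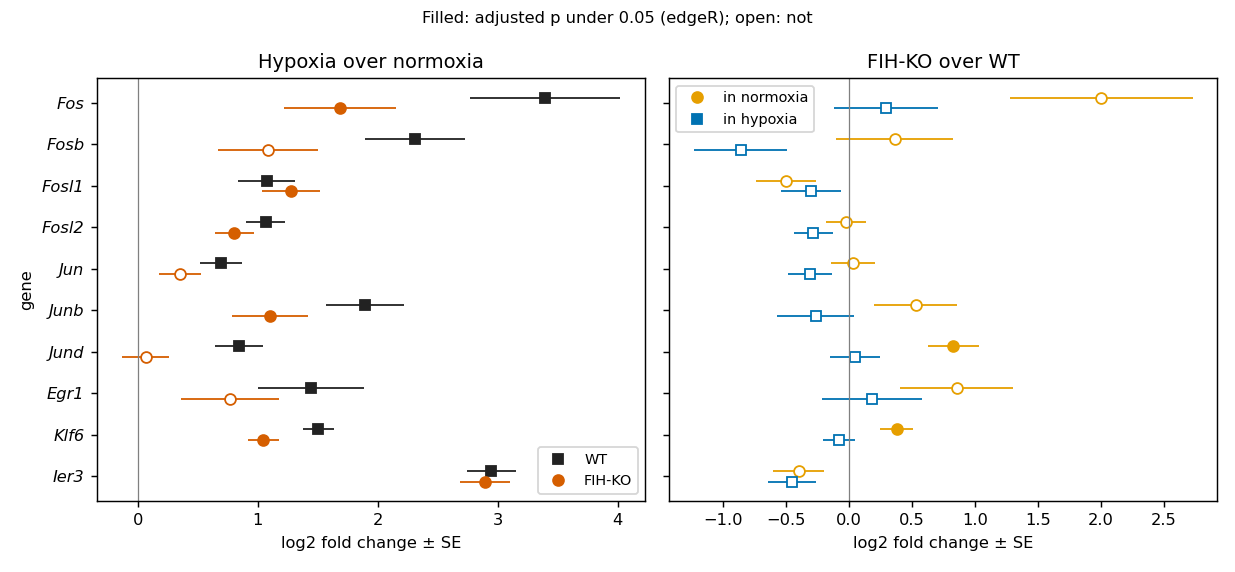
Log2 fold change of each gene with its SE from edgeR, for hypoxia over normoxia (left, WT black squares, FIH-KO orange circles) and FIH-KO over WT (right, normoxia orange circles, hypoxia blue squares). Filled points have an adjusted p under 0.05, which holds for 10 of 10 genes in WT cells and 6 of 10 in FIH-KO cells on the left, and for *Jund* and *Klf6* in normoxia on the right.

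Whether the response to hypoxia depended on FIH was tested by the difference of the hypoxia changes (FIH-KO minus WT). The estimates ran from -1.71 ± 0.84 (*Fos*) to 0.20 ± 0.34 (*Fosl1*), with a median of -0.57 against -0.02 over all genes. Without *Fos*, which reached the test only through its hypoxia libraries, the median was -0.46. None of the 10 was called by edgeR or by DESeq2, as 0% of all genes were, and 2 of 10 had an unadjusted p under 0.05, where 6.64% of all genes did. These were *Jund* (-0.78 ± 0.28, adjusted p = 0.61) and *Klf6* (-0.46 ± 0.18, adjusted p = 0.66). The genes called in WT cells and not in FIH-KO cells, *Fosb*, *Jun*, *Jund* and *Egr1*, were thus not shown to respond differently. All the libraries of WT cells lay higher in hypoxia for 10 of 10 genes (35.2% of all genes), and those of FIH-KO cells for 8 of 10 (25.9%), with *Jun* and *Jund* overlapping. Without *Fos* the numbers were 9 of 9 and 7 of 9. The FIH-KO to WT estimates in hypoxia depended on the FIH-KO hypoxia library kept. With all libraries they were -0.45 (*Ier3*), -0.31 (*Jun*), -0.26 (*Junb*) and -0.30 (*Fosl1*). Without FIH-KO hypoxia replicate 1, the library with the higher values, they were -0.81 (*Ier3*), -0.65 (*Jun*), -0.997 (*Junb*) and -0.74 (*Fosl1*). Without FIH-KO hypoxia replicate 2, *Junb* was at 0.24 and *Fosl1* at 0.063.

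Per length, the FOS family summed to 56.2 ± 6.06 RPKM (SD, n = 2) in WT normoxia, 42.4 ± 9.36 in FIH-KO normoxia, 119 ± 19.3 in WT hypoxia and 96.7 ± 35.9 in FIH-KO hypoxia. *Fosl1* made up 77.9% to 83.7% of the family in the group means and *Fosl2* nearly all of the rest, while *Fos* and *Fosb* each stayed under 1% in every library, their highest shares being 0.812% and 0.831%. In WT cells the family's makeup thus changed little as its sum grew. The JUN family summed to 53.7 ± 4.499 RPKM in WT normoxia, 70.6 ± 1.33 in FIH-KO normoxia, 102 ± 9.67 in WT hypoxia and 90.1 ± 34.7 in FIH-KO hypoxia. Here the makeup shifted. In WT cells the share of *Jun* was 56.4% in normoxia and 48.0% in hypoxia, and that of *Junb* 10.9% and 21.1%, with no overlap of the libraries. In FIH-KO cells the share of *Jun* was 43.9% and 44.3%, that of *Junb* 11.9% and 19.2%, and that of *Jund* 44.2% and 36.5%, against 32.6% and 30.9% for *Jund* in WT cells. The sums and shares were not tested.

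**Figure D3:**
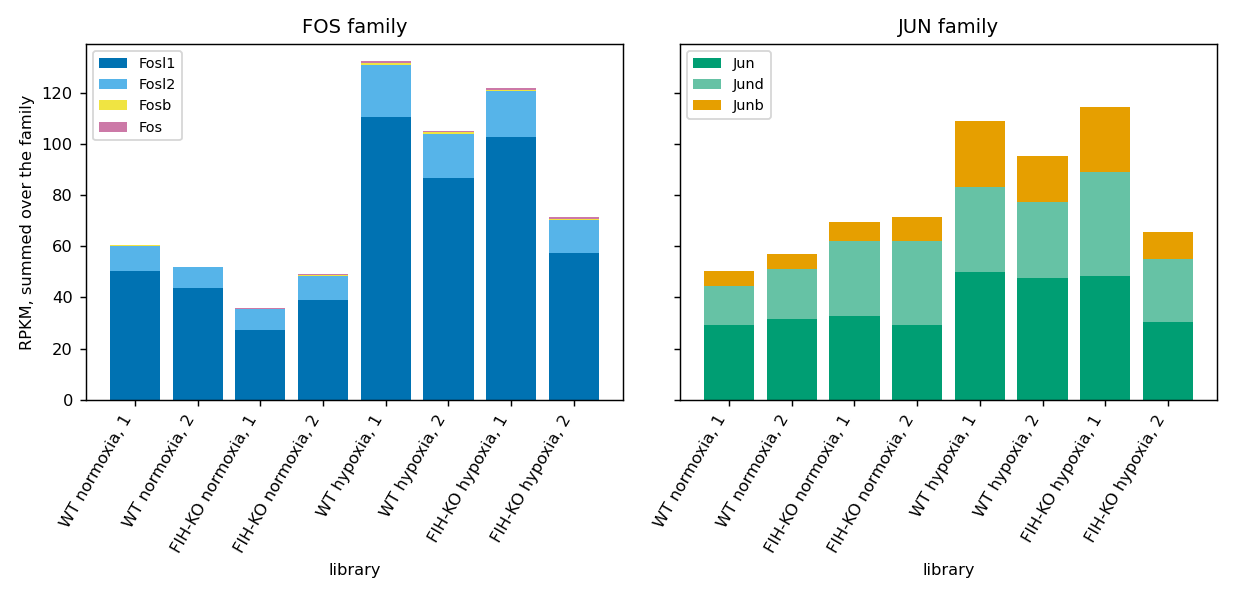
RPKM of the FOS genes (left) and JUN genes (right), stacked for each of the 8 libraries from a baseline of 0. *Fosl1* fills most of each FOS bar, the *Junb* part of the JUN bars is larger in hypoxia, and FIH-KO hypoxia replicate 2 has shorter bars than replicate 1 (FOS sums 71.4 and 122 RPKM, JUN sums 65.6 and 115).

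For the lists that follow, 16.9% of all genes tested rose and 15.5% fell in hypoxia in WT cells, 8.84% rose and 8.0% fell in FIH-KO cells (16.8% in all), and between genotypes 15.2% were higher and 13.0% lower in normoxia and 14.1% higher and 13.9% lower in hypoxia. In WT cells 32.4% of all genes were called for hypoxia. The lists, too, were chosen with earlier results of these data known, so their counts beside these shares are no independent test. Of 14 further bZIP genes whose products can pair with or replace AP-1 subunits, 9 were tested, of which 7 rose in hypoxia in WT cells (median 0.72) and 5 in FIH-KO cells (median 0.44). The WT count was 4 without WT normoxia replicate 2, and the FIH-KO count was 2 without FIH-KO normoxia replicate 1 and 3 without replicate 2. *Atf3*, encoding a stress-induced partner of JUN proteins, went from 1.99 and 3.32 CPM to 86.2 and 72.4 in WT cells and from 2.56 and 3.97 to 50.3 and 28.0 in FIH-KO cells. Its rise was 4.89 ± 0.32 in WT cells (adjusted p = 2.3e-06) and 3.58 ± 0.31 in FIH-KO cells (adjusted p = 1.9e-05), and it was lower in FIH-KO than in WT cells in hypoxia (-1.02 ± 0.25, adjusted p = 0.0098), a call lost in DESeq2 (adjusted p = 0.068) and without WT hypoxia replicate 1 (adjusted p = 0.094). The small MAF gene *Maff* rose by 0.999 ± 0.20 in WT cells and 1.33 ± 0.20 in FIH-KO cells. *Atf7* differed between FIH-KO and WT cells by 0.33 ± 0.10 at 21% O2 (adjusted p = 0.032), a call lost in 6 of 15 alternatives, and by 0.21 ± 0.10 at 1% O2 (adjusted p = 0.16).

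Of 30 other immediate early genes, 27 were tested, of which 16 rose in hypoxia in WT cells (median 0.96) and 10 in FIH-KO cells (median 0.40). Without WT hypoxia replicate 1 the WT count was 10, and the FIH-KO count was 4 without FIH-KO hypoxia replicate 1 and 6 without either normoxia library of FIH-KO cells. *Ptgs2*, encoding the inducible cyclooxygenase, rose by 3.21 ± 0.32 in WT cells and by 2.35 ± 0.31 in FIH-KO cells. The Krüppel-like factor gene *Klf2* rose by 3.15 ± 0.34 and 1.79 ± 0.31, and *Gadd45a*, a stress gene of growth arrest, by 2.52 ± 0.41 and 1.81 ± 0.40. The *Gadd45a* change in FIH-KO cells was 0.87 without FIH-KO hypoxia replicate 1 (adjusted p = 0.073) and 1.52 without FIH-KO normoxia replicate 2 (adjusted p = 0.08). Between genotypes the list went both ways, with 4 genes higher and 4 lower in FIH-KO cells in normoxia and 1 higher and 6 lower in hypoxia. The 4 higher in normoxia were 1 and 2 without WT normoxia replicate 1 and 2 and 7 without either FIH-KO hypoxia library, and the 6 lower in hypoxia were 3 without WT hypoxia replicate 1. The antiproliferative gene *Btg2* was higher in FIH-KO cells by 2.21 ± 0.31 at 21% O2 (adjusted p = 0.00035) and by 1.56 ± 0.29 at 1% O2 (adjusted p = 0.0022), and *Klf4*, encoding a differentiation factor, by 1.22 ± 0.35 at 21% O2 (adjusted p = 0.021), with 0.08 ± 0.30 at 1% O2 (adjusted p = 0.87). The growth regulator *Myc* was lower in FIH-KO cells at 21% O2 (-1.04 ± 0.29, adjusted p = 0.02) and at 1% O2 (-1.47 ± 0.29, adjusted p = 0.0032). The call at 21% O2 was lost in DESeq2 (adjusted p = 0.08) and without FIH-KO normoxia replicate 1 (adjusted p = 0.15) or WT normoxia replicate 1 (adjusted p = 0.12). *Errfi1*, encoding an inhibitor of EGF receptor signaling, was lower at both oxygen levels (-0.83 ± 0.15 and -0.50 ± 0.15). *Csrnp1*, an AXIN1-induced nuclear factor gene, was lower at 1% O2 (-1.28 ± 0.21), with -0.58 ± 0.22 at 21% O2 (adjusted p = 0.069).

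Of the 24 genes for receptors, kinases and factors upstream of AP-1, 4 rose and 5 fell in hypoxia in WT cells, and 3 rose and 1 fell in FIH-KO cells, with medians of 0.03 and -0.04. In WT cells 2 rose without WT hypoxia replicate 2 or any 1 normoxia library of either genotype, and the number that fell was 1 without either WT normoxia library, 2 without WT hypoxia replicate 1 and 3 without WT hypoxia replicate 2. In FIH-KO cells 1 rose without either FIH-KO normoxia library. *Map2k1*, encoding the ERK kinase MEK1, rose by 1.32 ± 0.13 in WT cells and 1.29 ± 0.13 in FIH-KO cells, and *Mapk7*, encoding ERK5, by 0.73 ± 0.13 and 0.47 ± 0.13. In WT cells *Elk3*, a ternary complex factor gene, fell by 0.55 ± 0.10 on the log2 scale and *Map2k2*, encoding MEK2, by 0.40 ± 0.14, with -0.22 ± 0.10 and -0.31 ± 0.14 in FIH-KO cells (adjusted p = 0.16 for each). *Egfr*, encoding the EGF receptor, stood at 28.3 and 31.8 CPM in WT normoxia, 142 and 126 in FIH-KO normoxia, 29.7 and 33.7 in WT hypoxia and 64.1 and 81.6 in FIH-KO hypoxia. Both FIH-KO groups were above both WT groups (by 2.16 ± 0.15 at 21% O2, adjusted p = 2e-06, and by 1.20 ± 0.14 at 1% O2, adjusted p = 0.00013), and in FIH-KO cells *Egfr* fell in hypoxia (-0.88 ± 0.14, adjusted p = 0.0013). Between genotypes, FIH-KO cells had 5 upstream genes at higher and 6 at lower levels at 21% O2, and 5 and 4 at 1% O2. The normoxia counts were 2 and 2 without WT normoxia replicate 1, 3 and 2 without WT normoxia replicate 2 or FIH-KO normoxia replicate 1, and the 4 lower in hypoxia were 2 without either WT normoxia library. At 21% and 1% O2, *Mrtfb*, encoding a coactivator of serum response factor, was higher by 0.73 ± 0.12 and 0.72 ± 0.12, *Mapk3*, encoding ERK1, was higher by 0.53 ± 0.13 and 0.84 ± 0.13, and the RAS gene *Nras* was lower (-0.76 ± 0.11 and -0.51 ± 0.11).

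Of 20 feedback inhibitors of this signaling, 10 rose and 2 fell in hypoxia in WT cells (median 0.37), and 4 rose and 3 fell in FIH-KO cells (median 0.05). The number that rose in WT cells was 6 and 5 without WT normoxia replicate 1 and 2, and in FIH-KO cells it was 1 without FIH-KO hypoxia replicate 1, 0 and 2 without FIH-KO normoxia replicate 1 and 2, and 1 in the fit of only the FIH-KO libraries. The 3 that fell in FIH-KO cells were 0 to 2 with any 1 library left out (0 without FIH-KO normoxia replicate 1, 1 without any other normoxia library) and 0 in the fit of only the FIH-KO libraries, and the 2 that fell in WT cells were 0 without WT hypoxia replicate 1 or WT normoxia replicate 2, 1 without WT normoxia replicate 1 and 4 without FIH-KO hypoxia replicate 1. *Dusp1*, encoding a nuclear MAP kinase phosphatase, was at 3.08 and 3.67 CPM in WT normoxia, 9.17 and 12.9 in FIH-KO normoxia, 18.5 and 15.9 in WT hypoxia and 19.1 and 19.5 in FIH-KO hypoxia. It was thus lowest in WT normoxia, as were *Fos*, *Fosb*, *Jun*, *Junb*, *Jund*, *Egr1* and *Klf6* by group mean. *Dusp1* rose by 2.35 ± 0.22 in WT cells (adjusted p = 2.5e-05) and by 0.81 ± 0.20 in FIH-KO cells (adjusted p = 0.016), and in normoxia it was higher in FIH-KO cells (1.70 ± 0.22, adjusted p = 0.00025). *Dusp8*, a phosphatase gene for JNK and p38, rose by 2.59 ± 0.38 and 1.24 ± 0.35, and the ERK phosphatase gene *Dusp6* fell by 0.59 ± 0.15 and 0.63 ± 0.15. *Spred1*, encoding a RAS-ERK inhibitor, fell by 0.40 ± 0.14 in WT cells, with -0.24 ± 0.14 in FIH-KO cells (adjusted p = 0.25), and the Sprouty gene *Spry4* fell by 0.47 ± 0.15 in FIH-KO cells, with -0.35 ± 0.15 in WT cells (adjusted p = 0.087). Between genotypes 4 were higher and 2 lower in FIH-KO cells in normoxia, with *Zfp36l1*, encoding a factor of mRNA decay, at 0.88 ± 0.14, the nuclear ERK phosphatase gene *Dusp5* at -1.29 ± 0.21 and the EGR corepressor gene *Nab1* at -0.41 ± 0.11. In hypoxia 1 was higher and 2 lower, with *Spred1* at 0.47 ± 0.14, *Dusp5* at -2.02 ± 0.20 and *Nab1* at -0.49 ± 0.11, while *Zfp36l1* stood at 0.36 ± 0.14 (adjusted p = 0.073), and in normoxia *Spred1* stood at 0.31 ± 0.14 (adjusted p = 0.11). The 4 higher in normoxia were 2 without either WT normoxia library, the 2 lower were 1 without either of these or FIH-KO normoxia replicate 2, and without WT hypoxia replicate 1 the hypoxia counts were 0 higher and 1 lower, and without FIH-KO hypoxia replicate 2 the number higher was 2.

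Of 25 genes known as AP-1 targets, 23 were tested, of which 14 rose and 2 fell in hypoxia in WT cells (median 0.82), and 12 rose and 2 fell in FIH-KO cells (median 0.96). Without FIH-KO hypoxia replicate 1 the latter number that rose was 7. The stromelysin gene *Mmp10* rose by 3.09 ± 0.41 in WT cells and 2.02 ± 0.35 in FIH-KO cells, and the cytokine gene *Il11* by 2.48 ± 0.25 and 2.64 ± 0.32. The metalloproteinase inhibitor gene *Timp1* fell by 1.08 ± 0.23 in WT cells and 0.76 ± 0.23 in FIH-KO cells. The number that fell was 1 in place of 2 in WT cells without any 1 WT library, and in FIH-KO cells without any 1 WT library, FIH-KO hypoxia replicate 1 or FIH-KO normoxia replicate 2. The chromatin gene *Hmga1* fell by 0.48 ± 0.17 in WT cells, with -0.07 ± 0.17 in FIH-KO cells (adjusted p = 0.83), and *Ccnd1*, encoding cyclin D1, fell by 0.64 ± 0.12 in FIH-KO cells, with -0.29 ± 0.12 in WT cells (adjusted p = 0.08). Between genotypes 7 were higher and 3 lower in FIH-KO cells in normoxia, and 3 were higher and 3 lower in hypoxia. The normoxia counts were 4 and 1 without either WT normoxia library, with 1 lower also without FIH-KO normoxia replicate 1. In hypoxia the number higher was 7 without FIH-KO hypoxia replicate 2 and 1 without WT hypoxia replicate 2, and the number lower was 7 without FIH-KO hypoxia replicate 1 and 1 without FIH-KO hypoxia replicate 2 or any 1 WT library. The stromelysin gene *Mmp3* was higher in both (1.65 ± 0.18 and 1.49 ± 0.18), as was the intermediate filament gene *Vim* (0.52 ± 0.14 and 0.58 ± 0.14), and the collagenase gene *Mmp13* was higher by 1.72 ± 0.42 at 21% O2, with 0.87 ± 0.34 at 1% O2 (adjusted p = 0.076). *Il11* was lower in both (-2.32 ± 0.32 and -2.15 ± 0.25), as was *Areg*, encoding the EGF receptor ligand amphiregulin (-1.06 ± 0.32 and -0.85 ± 0.29). Of 9 heat shock genes, read as a list of another stress response, 7 were tested and 2 fell in WT cells in hypoxia, *Hspa8* by 0.82 ± 0.15 and *Hspe1* by 0.47 ± 0.11, while in FIH-KO cells the estimates ran from -0.34 ± 0.11 (*Hspe1*, adjusted p = 0.056) to 0.19 ± 0.14 (*Hsp90aa1*). In FIH-KO cells 3 heat shock genes were lower in normoxia and 2 in hypoxia, among them *Hspd1* (-1.02 ± 0.14 and -0.65 ± 0.14) and *Hspe1* (-0.69 ± 0.11 and -0.56 ± 0.11).

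**Figure D4:**
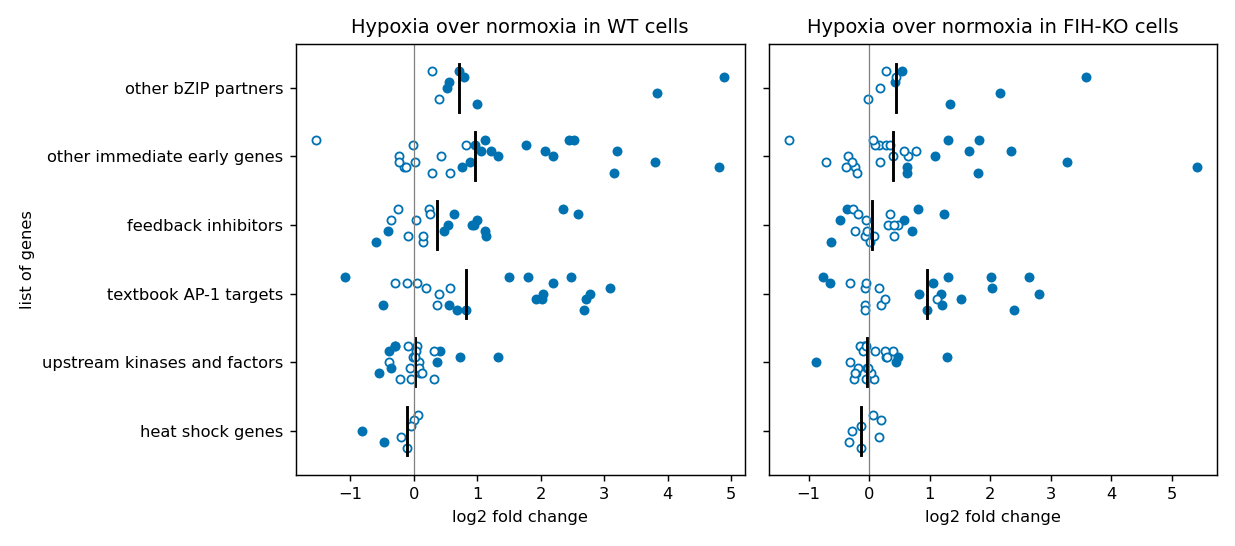
Log2 fold change of hypoxia over normoxia for the tested genes of 6 lists, in WT (left) and FIH-KO cells (right), one point per gene, filled where the adjusted p from edgeR was under 0.05, with a bar at the median of each list. In WT cells the medians of the bZIP partners (0.72), other immediate early genes (0.96) and AP-1 targets (0.82) lie to the right of 0, and those of the upstream genes (0.03) and heat shock genes (-0.10) near it.

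The genes whose profile over the 8 libraries was most like that of each of the 10 were sought among 10576 tested genes that averaged 50 counts or more, by the root mean square difference of centered log2 CPM. For *Ier3* these were *Pfkp*, encoding a phosphofructokinase of glycolysis (0.19), *Higd1a*, a hypoxia-inducible mitochondrial gene (0.24), and *Prelid2* (0.31). *Fos* was most like *Klf4* (0.27), *Ddit4*, encoding the mTOR inhibitor REDD1 (0.28), and the chemokine gene *Cxcl1* (0.30). *Fosb* was most like *Lif*, encoding an IL-6 family cytokine (0.25), followed by *Abhd18* (0.29) and *H2-T23* (0.29). *Junb* was most like the stress gene *Sesn2* (0.20), *Ets2* (0.22) and the NF-κB subunit gene *Relb* (0.22). The closest to *Fosl1* was *Zpr1* (0.15), to *Fosl2* *2610005L07Rik* (0.10), followed by the cyclin gene *Ccnd2* (0.10), and to *Jun* *Plxna3* (0.09). To *Jund* it was *Cep170b* (0.09), followed by *Josd2* (0.12) and *Tgfb1* (0.14), to *Klf6* *Zfp945* (0.09) and to *Egr1* *Arhgap33* (0.38). The SD of the 10 genes themselves over the libraries ran from 0.35 (*Jun*) to 1.58 (*Ier3*).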

How the data were processed

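RNA was poly(A)-selected with a stranded kit, aligned by the authors to GRCm39 with STAR and counted per gene with HTSeq. The submitters' processing notes also name GRCm38, and the annotation release and strand setting are not given in the sources used here. The deposited values are raw counts, which are not normalized. The CPM and RPKM levels were scaled to library totals adjusted by TMM factors (0.983 to 1.016), whereas the filter used unadjusted totals. Of 53700 gene IDs, 97.97% were found in GENCODE M39, which gave positions and the exon lengths for RPKM. The 10 genes and the gene lists were chosen with earlier results of these data known. Genes were filtered with filterByExpr (13933 kept), scaled by TMM and tested over all 8 libraries with edgeR 4.0.16 (R 4.3.3), using quasi-likelihood F tests on contrasts of the 4 groups and Benjamini-Hochberg adjustment over all genes tested at 0.05. The study itself used DESeq2 (here version 1.42.0, as an alternative). The pipeline was tested on simulated counts. Fold changes are FIH-KO over WT or hypoxia over normoxia, and comparisons that share a group of libraries are not independent. All 10 genes are named. From each other list up to 2 risen and 2 fallen genes per comparison are named, those with the largest change among called genes averaging 50 counts or more, and 3 most similar genes were listed per member, of which those described are named. Some listed genes that the rule picked are not reported here. *Hif1an* served as the check of the labels. Intervals cover counting error only. Alternatives were DESeq2, other scalings and filters, fits of only the libraries compared, a replicate block and the leaving out of each library.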

Additional observations from a re-analysis of the deposited data

How the results depend on the processing

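Of the 10 genes, the number called between FIH-KO and WT cells in normoxia (2) was 1 with upper-quartile scaling or at least 10 counts in every library, 7 with any gene of at least 1 read, 4 with only the libraries compared, and 0 to 5 when 1 library was left out. In hypoxia (0) it was 2 with any gene of at least 1 read and 0 to 6 when 1 library was left out. For hypoxia in WT cells (10) it was 6 to 10 when 1 library was left out, 6 without WT hypoxia replicate 1, and for hypoxia in FIH-KO cells (6) it was 4 to 8. The causes were not tested. The share of all genes called was not computed for these alternatives, so these counts cannot be set against it. The same holds for the list counts with a library left out. The difference of the hypoxia changes gave 0 calls in every alternative.

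Replicate numbers were not shown to pair the libraries (correlation of deviations between groups -0.01 to 0.19). The highest was that of WT hypoxia with FIH-KO hypoxia, the groups in which 8 and 9 of the 10 genes were higher in replicate 1. With the replicate block, 1 of the 10 genes, *Ier3*, was called between genotypes in hypoxia (-0.49), 2 in normoxia, 10 and 6 for hypoxia in WT and FIH-KO cells. Among other immediate early genes, the block gave 7 calls of higher levels in FIH-KO normoxia and 2 of lower levels in FIH-KO hypoxia than normoxia.

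For the 10 genes, 20 estimates changed sign with 1 library left out, and none did under the other alternatives. FIH-KO against WT in normoxia ranged from -0.15 to 1.02 (*Fosb*), -0.17 to 0.088 (*Fosl2*) and -0.067 to 0.082 (*Jun*). In hypoxia it ranged from -0.74 to 0.063 (*Fosl1*), -0.997 to 0.24 (*Junb*), -0.31 to 0.36 (*Jund*) and -0.17 to 0.048 (*Klf6*). Hypoxia in FIH-KO cells ranged from -0.006 to 0.65 (*Jun*) and -0.31 to 0.37 (*Jund*). The difference of the hypoxia changes ranged from -1.51 to 0.13 (*Egr1*), -0.22 to 0.56 (*Fosl1*) and -0.38 to 0.26 (*Ier3*). Named genes of the other lists were followed through the alternatives only in the comparisons for which the rule picked them. There these genes kept their direction in every alternative. Their calls were lost 64 times with 1 library left out and 13 times otherwise, most often for *Areg* (10 of 15 alternatives in hypoxia and 5 in normoxia), *Spry4* and *Timp1* (7 each, hypoxia in FIH-KO cells) and *Atf7* (6), and in 1 to 4 alternatives for *Atf3*, *Klf4*, *Gadd45a*, *Myc*, *Mapk7*, *Map2k2*, *Dusp1*, *Dusp6*, *Dusp8*, *Nab1*, *Spred1*, *Mmp13*, *Vim* and *Hmga1*. *Fos* could not be fitted with at least 10 counts in every library, nor with only the normoxia libraries. With 2 libraries a group, a lone library in a group is assumed to vary like the others.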
